A study of Mus musculus with 4 samples.

Results

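Adh7, Aldh3a1, Akr1b8 and Akr1b10 encode enzymes that handle alcohols, aldehydes and ketones, and all 4 were among the 1940 genes listed with a called interval (a stretch of enriched reads) in Nrf2 chromatin immunoprecipitation sequencing (ChIP-seq) of mouse esophagus. They were taken by gene name from that list, so their presence in it is not a result. The study had 3 ChIP libraries from C57BL/6 mice, all made with the same antibody to Nrf2. These came from wild-type animals, animals without Nrf2 (Nrf2KO) and animals without Keap1 (Keap1KO), with 1 library per genotype. A pooled input library without antibody was the fourth sample and was not analysed here. The labels give no age, number of animals or allele for either knockout, and do not say whether the genes were deleted in the whole animal or in one tissue. Binding signal does not measure expression, so the labelled tissue could not be checked against marker genes.

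Nrf2 is a transcription factor that, paired with a small Maf protein, binds antioxidant response elements and switches on genes for detoxification. Keap1 holds it at a low level by directing its degradation. Adh7 is the class IV alcohol dehydrogenase, which oxidizes ethanol and retinol and is known from the upper digestive tract. Aldh3a1 is an aldehyde dehydrogenase that oxidizes aromatic aldehydes and aldehydes from lipid peroxidation to acids. Akr1b8 and Akr1b10 are aldo-keto reductases, which reduce aldehydes and ketones with NADPH.

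Each of the 4 genes had 1 interval, called in the Keap1KO library alone. That is the usual state of this table and does not set the 4 genes apart. Of its 1460 loci (regions sharing the same listed genes), 99.2% have a Keap1KO call. Wild-type calls exist at 3.77% of loci and Nrf2KO calls at 0.0%. The intervals of Adh7, Aldh3a1 and Akr1b8 lay upstream of the listed gene start, and that of Akr1b10 lay just inside the gene. Positions are on mm10, the build named in the submitters' processing notes, and 95.5% of the 1727 interval positions in the table were multiples of 16 bp, so they are given on about that grid. The table does not say whether an interval inside a gene is in an exon or an intron.

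The Adh7 interval was at position 138210656 on chromosome 3, 7117 bp upstream of the listed start of Adh7 (GeneID 11529, 138217773 to 138232042, plus strand). It is also listed under 0610031O16Rik, a long non-coding RNA gene on the minus strand, with its end at 138210717, just short of the interval. In the RefSeq table of GRCm38.p6 the span of Adh7 begins earlier, at 138198064, so the interval lay 12592 bp inside that longer span. The next listed interval, under 4930579F01Rik, was 18.2 kb away on the lower side, and on the higher side the next was 777.8 kb away.

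The Aldh3a1 interval was at 61203024 on chromosome 11, 5718 bp upstream of Aldh3a1 (GeneID 11670, 61208742 to 61218418, plus strand). It is also listed under the pseudogene Rps13-ps5, at 3177 bp from that gene's start and beyond its end. The nearest other listed intervals were 267.5 kb away on the lower side (Map2k3 and Gm16516) and 1617.2 kb away on the higher side (Trim16). Aldh3a2, a sister gene whose RefSeq span lies 5.0 kb from that of Aldh3a1, had no row.

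The Akr1b8 interval was at 34350368 on chromosome 6, 3796 bp upstream of Akr1b8 (GeneID 14187, 34354164 to 34368454, plus strand). The Akr1b10 interval was at 34384544, 297 bp into Akr1b10 (GeneID 67861, 34384247 to 34396949, plus strand). Neither is listed under another gene. They were 34.2 kb apart with 0 listed intervals between them. The aldo-keto reductase genes on either side, Akr1b3 (36.7 kb from Akr1b8) and Akr1b7 (15.4 kb from Akr1b10), had no row. Akr1b8 and Akr1b10 are related in sequence, and the handling of reads that fit more than 1 place is not stated in the labels or the table.

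**Figure D1:**
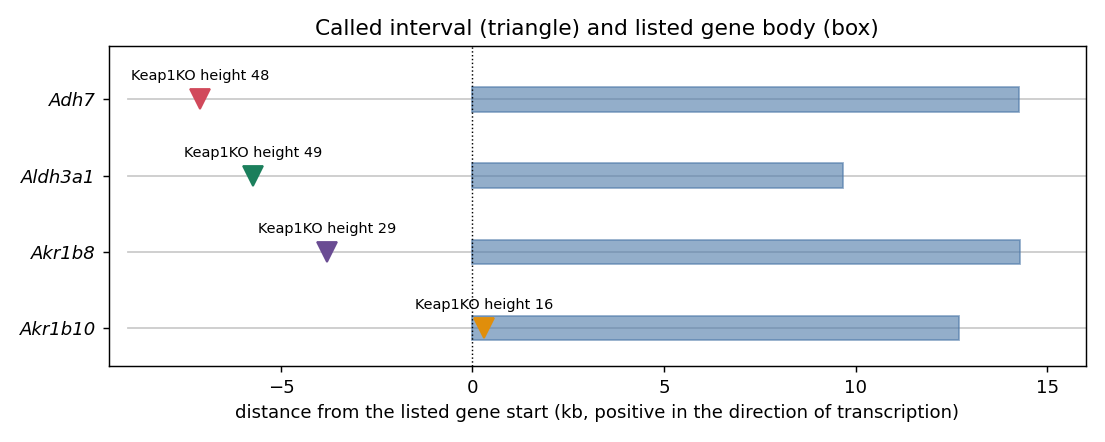
Position of the called interval (triangle) against the listed gene body (box) of each of the 4 genes, in kb from the listed gene start, positive in the direction of transcription. The intervals of Adh7, Aldh3a1 and Akr1b8 lay 7.12, 5.72 and 3.80 kb upstream, and that of Akr1b10 lay 0.30 kb inside the gene.

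The 250 bases before the start of 3 of the genes, from the RefSeq promoter table of GRCm38.p6, are shown because the called intervals of Adh7 and Akr1b8 did not lie in them and that of Akr1b10 lay close by. All are on the plus strand, at chr3:138217523-138217772 for Adh7, chr6:34353896-34354145 for Akr1b8 and chr6:34383997-34384246 for Akr1b10. Capitals mark a match to TGANTCA, the element of the AP-1 factors, and lower case is all other sequence.
Adh7: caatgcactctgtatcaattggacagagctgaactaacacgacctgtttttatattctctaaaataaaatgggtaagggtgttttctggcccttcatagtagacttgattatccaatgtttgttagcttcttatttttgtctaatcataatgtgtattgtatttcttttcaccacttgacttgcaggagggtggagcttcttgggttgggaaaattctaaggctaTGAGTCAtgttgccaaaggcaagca
Akr1b8: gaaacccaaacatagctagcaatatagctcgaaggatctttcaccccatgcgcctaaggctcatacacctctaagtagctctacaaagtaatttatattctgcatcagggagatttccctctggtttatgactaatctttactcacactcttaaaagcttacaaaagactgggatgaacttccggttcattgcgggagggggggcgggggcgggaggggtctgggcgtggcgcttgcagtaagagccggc
Akr1b10: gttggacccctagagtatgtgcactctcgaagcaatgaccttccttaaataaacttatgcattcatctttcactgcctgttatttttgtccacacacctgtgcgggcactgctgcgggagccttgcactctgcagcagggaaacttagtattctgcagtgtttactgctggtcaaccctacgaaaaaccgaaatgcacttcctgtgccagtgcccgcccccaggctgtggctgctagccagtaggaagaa
Windows of 300 bases, these 250 and the 50 that follow, were searched on both strands for TGACNNNGC, the core of the antioxidant response element. It had 0 matches in the 3 windows, and 12.4% of the 32851 promoter windows of the table hold it. The same core followed by A also had 0 matches (3.04% of all windows). TGANTCA occurred once, as TGAGTCA, from 25 to 19 bases before the start of Adh7 (7.81% of all windows). It was searched for after the sequences had been read, and none of the capitals overlap TGACNNNGC.
The intervals were 6867 bp (Adh7), 3528 bp (Akr1b8) and 248 bp (Akr1b10) from the edge of these windows, so the sequence under each interval was not examined. Base composition differed among the 3, with 39.3% G and C in Adh7, 49.0% in Akr1b8 and 51.0% in Akr1b10, against a median of 52.7% over all windows. The Akr1b8 and Akr1b10 windows shared no run longer than 9 bases. The longest shared run was 10 bases for Adh7 and Akr1b8, and 11 for Adh7 and Akr1b10. The Aldh3a1 promoter is not shown.

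Peak heights are the authors' average height per gene, in a unit that is not stated. Each of the 4 genes has 1 active region, so its value is the height of that region. Heights over the whole table are given per locus, meaning all regions that share exactly the same listed genes. The 1460 loci had medians of 5 in the wild-type library, 4.33 without Nrf2 and 18 without Keap1. Depth per library is unknown and no genotype has a replicate, so no difference below could be tested, and a height difference between libraries cannot be told apart from a difference in depth or in the animals used.

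Adh7 had a height of 6 in wild-type, of 1 in Nrf2KO and of 48 in Keap1KO. It was thus near the table's median in wild-type, almost without signal in the library lacking Nrf2, and tall in Keap1KO, where 49 of the 1460 loci were higher. On the scale of height + 1, used for every fold and log2 ratio between libraries, Keap1KO was 7-fold above wild-type (log2 2.81) and 24.5-fold above Nrf2KO (log2 4.61). Only 6 loci had a larger ratio of Keap1KO to Nrf2KO. Wild-type was 3.5-fold above Nrf2KO (log2 1.81), a ratio higher than that of 95.3% of loci. A height of 1 in Nrf2KO makes both of these folds depend on the pseudocount: with 5 in place of 1, the log2 ratios over Nrf2KO were 3.14 for Keap1KO and 0.87 for wild-type. With libraries scaled to equal medians the log2 ratios of Keap1KO were 1.02 over wild-type and 2.65 over Nrf2KO.

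Aldh3a1 had a height of 7 in both wild-type and Nrf2KO and of 49 in Keap1KO. Its Keap1KO height was 1 above that of Adh7 and was exceeded at 44 loci. In contrast to Adh7, wild-type and Nrf2KO were level in height as deposited. With depth unknown, this does not show whether wild-type held signal above the Nrf2KO background. Keap1KO was 6.25-fold above both wild-type and Nrf2KO (log2 2.64). This ratio was above that of 89.6% of loci against wild-type and 77.6% against Nrf2KO. With a pseudocount of 5 these ranks rose to 96.9% and 90.8%. With libraries scaled to equal medians Aldh3a1 no longer reached 2-fold, at log2 ratios of 0.86 over wild-type and 0.68 over Nrf2KO. The height of 7 in Nrf2KO was higher than at 72.7% of loci, and that of Adh7 was higher than at 3.3%.

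Akr1b8 had a height of 1 in wild-type, of 3 in Nrf2KO and of 29 in Keap1KO. Its wild-type height was among the lowest in the table, with 0.7% of loci below it and 57 others equal. Keap1KO was 15.0-fold above wild-type (log2 3.91), a ratio exceeded at 4 loci and matched at 3 others, and 7.50-fold above Nrf2KO (log2 2.91). Wild-type was below Nrf2KO, at a log2 ratio of −1.0, a difference of 2 height units. The size of its ratio over wild-type depended on the pseudocount, with a log2 ratio of 4.30 at 0.5 and 2.5 at 5, whereas its rank moved little, above 99.5% of loci as given and above 99.1% and 98.9% at those pseudocounts. With libraries scaled to equal medians it was 2.1 over wild-type and fell just short of 2-fold over Nrf2KO.

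Akr1b10 had a height of 13 in wild-type, of 7 in Nrf2KO and of 16 in Keap1KO. It was high in wild-type, where 30 loci were higher and 15 equal, and below the table's median in Keap1KO, where 846 loci were higher. Keap1KO was 1.21-fold above wild-type (log2 0.28), and 1430 of the 1460 loci had a larger ratio. It was 2.12-fold above Nrf2KO (log2 1.09). Wild-type was 1.75-fold above Nrf2KO (log2 0.81), a ratio above that of 77.2% of loci, or of 84.2% with a pseudocount of 5. When all libraries were scaled to equal medians the Keap1KO ratios of Akr1b10 turned negative, to −1.34 over wild-type and −0.72 over Nrf2KO. That scaling lowers Keap1KO heights by the same factor at every locus. The unscaled log2 ratios of Akr1b10 lay below the medians of all loci, 1.74 over wild-type and 1.91 over Nrf2KO.

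**Figure D2:**
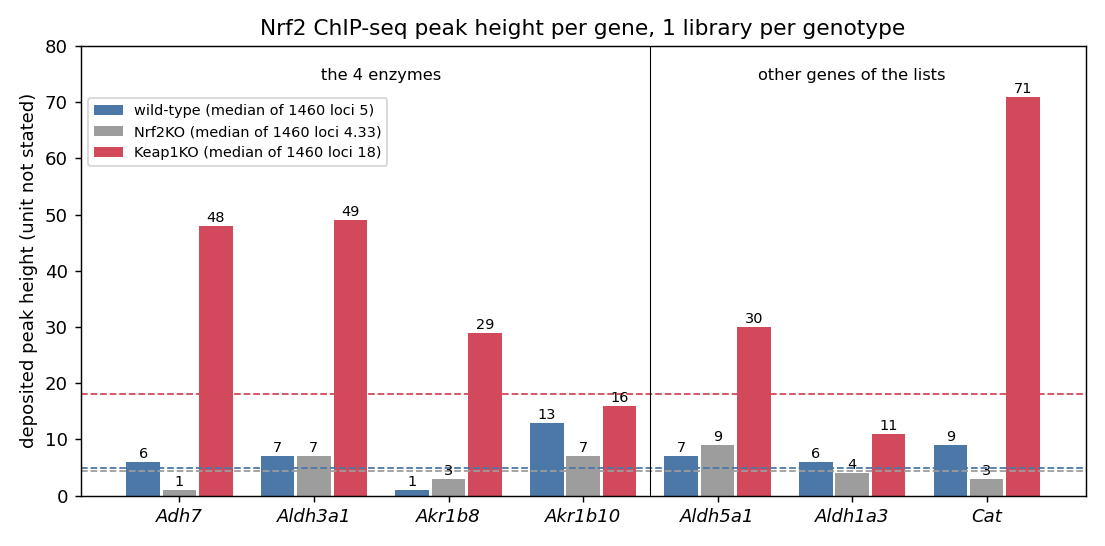
Deposited peak height in the wild-type, Nrf2KO and Keap1KO libraries, as bars from 0 with the height printed above each, for the 4 enzymes and the 3 other list genes with a row. Dashed lines are the medians of the 1460 loci (5, 4.33 and 18), and there are no error bars because each bar is 1 library. Adh7, Aldh3a1 and Akr1b8 stand above the Keap1KO median and Akr1b10 stands below it.

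Heights of the 4 genes ran from 16 to 49 in Keap1KO, from 1 to 13 in wild-type and from 1 to 7 in Nrf2KO. A call in Keap1KO put each of them in the table, so that heights close to 0 could occur in the other libraries alone, and these ranges are not compared. The order of the genes differed between libraries. In Keap1KO it was Aldh3a1, Adh7, Akr1b8 and Akr1b10 from the highest, whereas in wild-type Akr1b10 was first and Akr1b8 last. In Nrf2KO Aldh3a1 and Akr1b10 were level at 7, above Akr1b8 and Adh7. With single libraries there is no spread against which to separate neighbours in these orders, such as 48 and 49 in Keap1KO.

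At 3 of the 4 genes, all but Akr1b10, the Keap1KO height reached 2-fold over wild-type, as it did at 88.0% of all loci. At 4 of 4 it reached 2-fold over Nrf2KO, against 85.3% of all loci. At 0 of 4 was it 2-fold lower than wild-type (0.274% of all loci) or than Nrf2KO (0.137%). As deposited, these counts are near the background of the table, in which nearly every locus was listed because it was called in Keap1KO. With libraries scaled to equal medians, 2 of 4, Adh7 and Akr1b8, reached 2-fold over wild-type (8.36% of all loci). In that setting 1 of 4, Akr1b10, was 2-fold lower than wild-type (4.38%), and 1 of 4, Adh7, reached 2-fold over Nrf2KO (17.0%). That scaling takes out the typical Keap1KO signal, for which nearly every locus was listed, so nothing is read from these scaled counts. With a pseudocount of 5 and no scaling, Akr1b10 no longer reached 2-fold over Nrf2KO, which left 3 of 4 (73.2%). The median log2 ratio of the 4 was 2.73 over wild-type (1.74 over all loci) and 2.78 over Nrf2KO (1.91 over all loci). Both comparisons use the same Keap1KO library. Between wild-type and Nrf2KO, 1 of 4, Adh7, was 2-fold or more higher in wild-type (18.8% of all loci), and 1 of 4, Akr1b8, was 2-fold lower (8.29%). With a pseudocount of 5 neither reached it, at log2 ratios of 0.87 and −0.42 (3.97% of all loci higher and 0.959% lower). The median there was 0.41, against 0.19 over all loci.

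**Figure D3:**
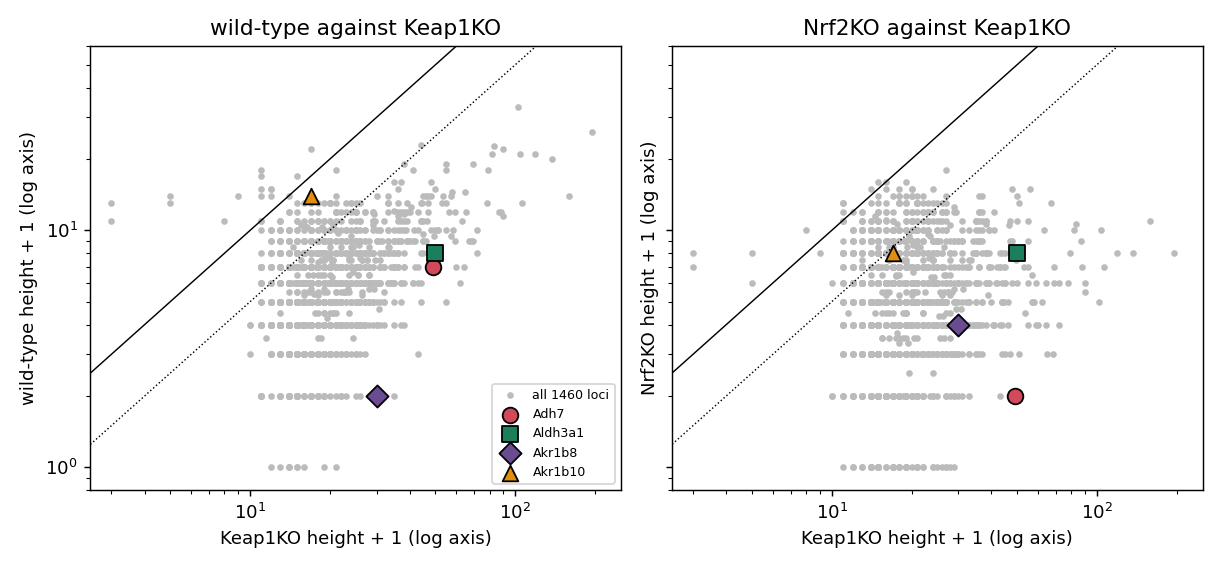
Height + 1 in wild-type (left) and in Nrf2KO (right) against height + 1 in Keap1KO, on log axes, with 1 grey point per locus and the 4 genes as coloured symbols. The solid line marks equal values and the dotted line a 2-fold higher value in Keap1KO. Akr1b10 lies between the lines on the left, and Adh7 lies at a height of 1 in Nrf2KO and 48 in Keap1KO on the right.

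In heights as deposited, the order of the 3 libraries also differed among the genes. Adh7 and Akr1b10 had the order Keap1KO, wild-type, Nrf2KO from the highest, as did 771 loci (52.8%). Akr1b8 was highest in Keap1KO with wild-type below Nrf2KO, as were 516 loci (35.3%). Aldh3a1 was highest in Keap1KO with wild-type equal to Nrf2KO, as were 149 (10.2%). All 3 patterns are thus common in the table. The orders of Akr1b10 (16 in Keap1KO, 13 in wild-type) and Akr1b8 (1 in wild-type, 3 in Nrf2KO) rest on small gaps between single libraries. With libraries scaled to equal medians Akr1b10 was lowest in Keap1KO, at log2 ratios of −1.34 over wild-type and −0.72 over Nrf2KO. Aldh3a1 was then no longer level, at −0.18 for wild-type over Nrf2KO.

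All 4 genes were called in Keap1KO (99.2% of all loci), 0 of 4 in wild-type (3.77%) and 0 of 4 in Nrf2KO (0.00%). Their Keap1KO heights stood between 16 and 49, where the lowest called height at a locus of 1 region was 9 and the median called height was 18. Akr1b10 was not called in wild-type, and its height there, 13, equalled the median of the 55 loci called in wild-type. Of the 15 loci of 1 region with exactly that wild-type height, 7 were called in wild-type and 8, Akr1b10 among them, were not. Among the 1405 loci not called in wild-type, 15 had a height of 13 or more. No label or header states the peak caller's thresholds.

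Height and ratio in this table differed with the distance to a gene start, and the 4 genes did not share that distance. Nearest starts listed for their intervals were at 7117 bp for Adh7, 3796 bp for Akr1b8, 3177 bp for Aldh3a1 (that of Rps13-ps5) and 297 bp for Akr1b10. The 409 loci from 1 to 10 kb away had a median height of 5 in wild-type, of 4 in Nrf2KO and of 18.5 in Keap1KO. The 454 loci within 1 kb had medians of 6.58, 7 and 17 in the same order. Set against loci at 1 to 10 kb, Adh7 kept its place, with 1 of them above it by Keap1KO over Nrf2KO and 35 above it by Keap1KO over wild-type. Aldh3a1 was above 95.4% of them in Keap1KO height and above 80.4% in Nrf2KO height. Akr1b8 was above 81.2% in Keap1KO height and above 1.7% in wild-type height.

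Set against loci within 1 kb of a start, Akr1b10 had an ordinary Nrf2KO height, above 45.2% of them, and an ordinary ratio of Keap1KO to Nrf2KO, above 39.2%. Its wild-type height stayed high, above 94.7% of them, and its ratio of Keap1KO to wild-type stayed low, above 4.8%. Its Keap1KO height was above 37.0% of them. By rank among these loci, it was thus ordinary in Nrf2KO, high in wild-type and somewhat below the middle in Keap1KO.

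**Figure D4:**
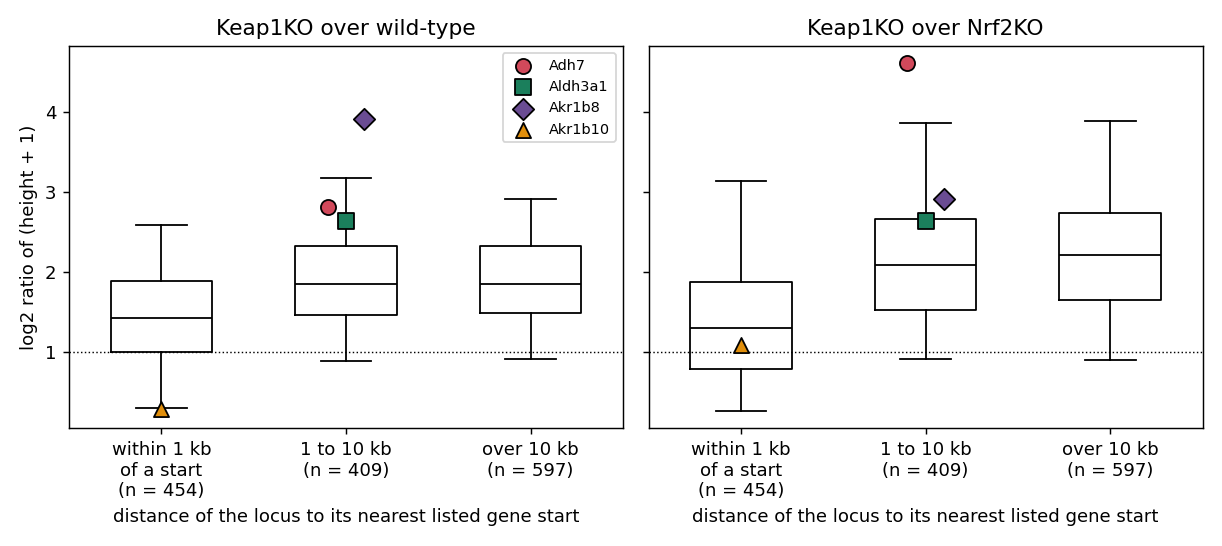
Log2 ratio of height + 1 for Keap1KO over wild-type (left) and Keap1KO over Nrf2KO (right), by distance of the locus to its nearest listed gene start. Boxes are quartiles with the median, whiskers run from the 5th to the 95th percentile of loci, symbols are the 4 genes and the dotted line is 2-fold. Akr1b8 on the left and Adh7 on the right lie above the upper whisker of loci at 1 to 10 kb, and Akr1b10 on the left lies at the lower whisker of loci within 1 kb.

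Of 45 genes in lists of alcohol dehydrogenases, aldehyde dehydrogenases, aldo-keto reductases and other ethanol-oxidizing enzymes, 7 had a row (15.6%), against 7.67% of 21900 protein-coding genes. The 4 genes described here are among those 7 and were chosen from the table, so nothing is read from that difference. The alcohol dehydrogenases had 1 of 6, Adh7. The aldehyde dehydrogenases had 3 of 21, Aldh3a1, Aldh5a1 and Aldh1a3. The aldo-keto reductases had 2 of 16, Akr1b8 and Akr1b10, and the remaining list had 1 of 2, Cat.

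Aldh5a1, the succinic semialdehyde dehydrogenase of GABA breakdown, had a height of 7 in wild-type, of 9 in Nrf2KO and of 30 in Keap1KO. Its interval lay 1107 bp upstream of the start on chromosome 13 and is also listed under 9330162012Rik and Gpld1. Like Akr1b8 it was lower in wild-type than in Nrf2KO, with Keap1KO 3.88-fold above wild-type and 3.10-fold above Nrf2KO. Aldh1a3, which makes retinoic acid from retinal, had 6, 4 and 11 in the same libraries, the lowest Keap1KO height of the 7. That interval lay 2668 bp beyond the end of Aldh1a3 on chromosome 7 and 117 bp into Lrrk1, so its assignment to Aldh1a3 is uncertain. Cat, the catalase that breaks down hydrogen peroxide and can oxidize ethanol, had 9, 3 and 71, the highest Keap1KO height of the 7.

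The loci most like each gene, by distance in log2 of height + 1 over the 3 libraries, came from other gene families. Those nearest to Aldh3a1 were Eif4ebp1, which encodes a repressor of translation initiation (7 in both wild-type and Nrf2KO, 51 in Keap1KO, distance 0.06), Ddit4l (distance 0.09) and Hs2st1 (0.23). Those nearest to Akr1b8 were Sh2d5, listed with Hp1bp3 (1, 3 and 27, distance 0.10), Dync1h1, listed with 9430024F10Rik (0.26), and Vipr2 (0.32). Those nearest to Akr1b10 were Synm (13, 7 and 13, distance 0.28), Kif2c (0.29) and Znrf4 (0.29). Adh7, whose Nrf2KO height of 1 makes small height differences count for much on this scale, had no locus so close. Its nearest were AA414768 (5, 1 and 32, distance 0.61), Mboat2 (7, 2 and 43, distance 0.64) and Taldo1, the transaldolase of the pentose phosphate pathway (8, 2 and 44, distance 0.70).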

How the data were processed

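Nrf2 ChIP-seq of mouse esophagus was deposited as 1 table with a row for each of 1940 genes. The submitters' processing notes name the aligner BWA, the peak caller MACS2 2.1.0 and the build mm10. Their parameters, the sequencing depth and whether libraries were scaled to each other were not given in the sources used here. Per the file headers, the deposited signal is an average peak height per gene and library, in no stated unit, and a flag marks a called interval. Intervals absent from the table (1059 of the Keap1KO and 222 of the wild-type numbers) were not analysed here.

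Interval positions came from the listed distances, counted from the start of each gene along its strand. The 1727 intervals were merged, nearest first, to the number of active regions stated per gene (1684), and heights of 1460 loci were solved by least squares (largest residual 0.00186) with Python 3.11.15, NumPy 2.4.6 and pandas 2.3.3. The solving was checked on permuted heights built with the same merged regions, which does not check the merging. Ratios use a pseudocount of 1. With 1 library per genotype no test was made, and a 2-fold rule describes size. Genes were matched by GeneID to RefSeq, which held all 4 members. The rule for named genes took the 4 members, the list genes with a row, genes sharing an interval with a member, and the 3 most alike loci per member; genes at neighbouring intervals and flanking family genes were added after seeing the data. Members and lists were chosen with earlier results of these data known. Alternatives were other pseudocounts, equal medians, a filter on mean height, values per gene and other call rules.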

Additional observations from a re-analysis of the deposited data

How the results depend on the processing

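No paired analysis was possible because there is 1 library of each genotype, and leaving out a replicate was not possible for the same reason. A log2 ratio was taken as moved when it changed by more than 0.25, and a share when it left the exact 95% binomial interval of the main share. Of 59 alternative values of the main results, 27 did not move, 30 moved and 2 changed sign; of 61 percentiles and list counts, 54 did not move (within 5 points, or within 1.5 times for the count) and 7 did. A larger pseudocount shrinks ratios by construction, and scaling to equal medians multiplies Keap1KO heights by 0.241 and wild-type heights by 0.866. For other moves the cause was not tested. Windows centred on the intervals were not run, since no genome was used here.

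At a pseudocount of 5, the log2 ratios of Keap1KO over wild-type were 2.27 at Adh7, 2.17 at Aldh3a1 and 2.5 at Akr1b8, and one of 0.5 gave 4.30 at Akr1b8. Equal medians gave 1.02, 0.86 and 2.1 at those genes and −1.34 at Akr1b10. For Keap1KO over Nrf2KO, a pseudocount of 5 gave 3.14 at Adh7, 2.17 at Aldh3a1, 2.09 at Akr1b8 and 0.81 at Akr1b10, and one of 0.5 gave 5.01 at Adh7. Equal medians gave 2.65, 0.68, 1.00 (just under 2-fold before rounding) and −0.72. For wild-type over Nrf2KO, Adh7 went to 2.12 and 0.87 with pseudocounts of 0.5 and 5, and Akr1b8 to −0.42 with 5.

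The share of loci at least 2-fold higher went, with a pseudocount of 5, to 72.5% for Keap1KO over wild-type, 73.2% for Keap1KO over Nrf2KO and 3.97% for wild-type over Nrf2KO. Equal medians gave 8.36%, 17.0% and 12.1%, and the filter on mean height (at or above its median) gave 86.2%, 82.4% and 15.6%. With 1 value per gene, Keap1KO over Nrf2KO was at 83.3%. With a height of at least 12 as the call, 1 of the 4 genes, Akr1b10, was called in wild-type. With a call and a height of at least 18 required, 3 of the 4, all but Akr1b10, stayed called in Keap1KO. That change was counted as not moved. A promoter match went from 0 to 1 of the 3 windows with TGANTCA, an alternative chosen after seeing the data, as were loci of like distance to a start.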
